A study of Mus musculus with 72 samples.

Results

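Potassium channels are the membrane proteins that let potassium ions leave or enter a cell, and in neurons they set the resting potential, end each action potential and limit how fast the next one follows. Voltage-gated alpha subunits form the pore in groups with modifier subunits that carry little current alone, and auxiliary subunits change their gating and surface level. Calcium-activated and sodium-activated channels, inward rectifiers and tandem-pore leak channels complete the family. In the hippocampus, dendritic A-type channels, the M-current and G protein-gated inward rectifiers are known for their control of pyramidal cell excitability. Here the family was taken as the protein-coding genes whose symbol starts with Kcn and a letter, leaving out Kcnj10, Kcnj13 and Kcnj16. That rule gave 91 genes of the 55401 gene models counted, and 80 of the 91 had enough reads to be tested.

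Bulk messenger RNA came from 2 ends of the hippocampus, dorsal (DH) and ventral (VH), in males of the inbred substrains C57BL/6J and C57BL/6NJ, labelled 6J and 6NJ. Mice of each label came straight from the home cage, were given the cue alone, or were given shock with the cue as fear conditioning, and tissue of the trained groups was taken 30 min after training. With 2 regions, 2 labels and 3 conditions there were 12 groups of 6, or 72 libraries. No transgene or drug is named for any group, the labels give no age, and each of the 36 codes, such as 31A, occurs once in DH and once in VH. A code joins a number and a letter, with 12 numbers in all and 2 in each group. Every number occurs under a single label and condition, and the labels do not say what it stands for. The labels do not tie libraries to individual animals, and p-values therefore measure only the spread among these libraries, which may in part be technical.

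Library totals ran from 30330382 to 56258370 counted reads. The label check went against the labels: Nnt, which carries a deletion in C57BL/6J, was lower in all 36 libraries labelled 6NJ (median 20.1 CPM, counts scaled to library size) than in any labelled 6J (median 38.0 CPM). Gabra2, the GABA-A receptor gene with a mutation that lowers it in C57BL/6J, was likewise lower in all 36 libraries labelled 6NJ, with medians of 120 and 260 CPM. Strain is therefore given below only as labelled. Ventral CA1 markers checked the regions: 5 of 6 were lower in DH, as for Dcn at a median of 10.8 CPM in DH and 68.7 CPM in VH. The DH library of code 40A held the highest Kcnd3 and the lowest Kcnab1 level of DH, toward the VH values. The VH library of code 40A lay toward the DH values in ratios given below. In 6 codes, all labelled 6J (4 cue, 2 home cage), Lcn2, an acute inflammation gene, was above 2 CPM in both regions. In bulk tissue, fewer cells of a type and less RNA per cell cannot be told apart.

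The sequences just upstream of 3 members are shown: Kcnab1, Kcnd2 and its relative Kcnd3. In these genes at least 35 of 36 DH libraries lay to 1 side of every VH library, and the last 2 are relatives that differed in opposite directions. Each window is the 250 bases before a RefSeq start site on the plus strand of GRCm38.p6, with matches to a searched motif in capitals. Of the 3 Kcnab1 windows, 2 are shown, each the nearest to the start of a transcript described below, at chr3:65108764-65109013 and at chr3:65187853-65188102, and the Kcnd2 window is chr6:21215096-21215345 and the Kcnd3 window chr3:105451640-105451889.
Kcnab1 upstream start: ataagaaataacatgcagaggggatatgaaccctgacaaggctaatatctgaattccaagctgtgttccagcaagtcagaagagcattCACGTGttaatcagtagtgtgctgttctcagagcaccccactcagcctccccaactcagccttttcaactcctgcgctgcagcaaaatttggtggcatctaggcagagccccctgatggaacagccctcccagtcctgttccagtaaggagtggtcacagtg
Kcnab1 internal start: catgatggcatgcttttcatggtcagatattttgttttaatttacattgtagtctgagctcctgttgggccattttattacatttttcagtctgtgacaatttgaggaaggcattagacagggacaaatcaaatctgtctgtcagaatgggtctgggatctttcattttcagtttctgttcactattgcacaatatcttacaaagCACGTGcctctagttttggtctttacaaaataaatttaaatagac
Kcnd2: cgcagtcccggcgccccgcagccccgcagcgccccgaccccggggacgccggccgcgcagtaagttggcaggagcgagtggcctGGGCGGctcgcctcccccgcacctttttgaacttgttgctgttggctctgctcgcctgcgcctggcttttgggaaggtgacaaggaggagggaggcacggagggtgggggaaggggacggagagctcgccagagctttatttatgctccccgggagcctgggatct
Kcnd3: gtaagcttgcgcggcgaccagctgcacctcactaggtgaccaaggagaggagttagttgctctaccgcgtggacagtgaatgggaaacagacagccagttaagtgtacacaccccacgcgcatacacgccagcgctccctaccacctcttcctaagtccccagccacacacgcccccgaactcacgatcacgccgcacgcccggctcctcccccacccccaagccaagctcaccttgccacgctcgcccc
The motifs searched, on both strands and none containing another, were the GC box GGGCGG, the E-box CACGTG, the TATA box TATAAA and the cyclic AMP response element TGACGTCA. Both Kcnab1 windows held 1 E-box, the Kcnd2 window held 1 GC box, and the Kcnd3 window held none of these letters. Promoter windows were found for 66 of the 91 members, 88 windows in all. A GC box stood in 45.5% of the members' windows and in 32.7% of all 32851 windows of this length, an E-box in 6.82% and 6.02%, and a TATA box in 1.14% and 12.4%. The response element was in none of the members' windows and in 1.55% of all windows. The median share of G and C bases was 58.8% in the members' windows and 52.4% in all windows. Its part in the motif shares was not tested. GC boxes were about as common before members higher in DH (46.9% of 32 windows) as before members lower in DH (48.5% of 33 windows).

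In the comparison of regions, most of the family differed in level between DH and VH, in both directions. With edgeR's quasi-likelihood test and Benjamini-Hochberg adjustment over all 20255 genes tested, 68 of 80 members (85%) passed an adjusted p of 0.05, against 63.6% of all genes tested. Of these, 31 were higher in DH (38.8%, against 32.7% of all genes) and 37 were lower (46.2%, against 30.9%). With 36 libraries a region small differences pass, and 24 of the 68 differed by less than 0.25 on the log2 scale. A log2 fold change of at least 0.5 was reached by 13 members higher in DH (6.11% of all genes) and 8 lower (5.21% of all genes), together 26.2% of those tested against 11.3% of all genes. The median log2 fold change was -0.11 over members and 0.0044 over all genes. In 62 of the 68 members the means of all 6 label and condition groups lay on the called side. The same libraries gave the calls, so that count adds no separate support. Summed over the family, levels were close: a median of 5225 CPM in DH (4675 to 5530) and 5041 CPM in VH (4691 to 5354).

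**Figure D1:**
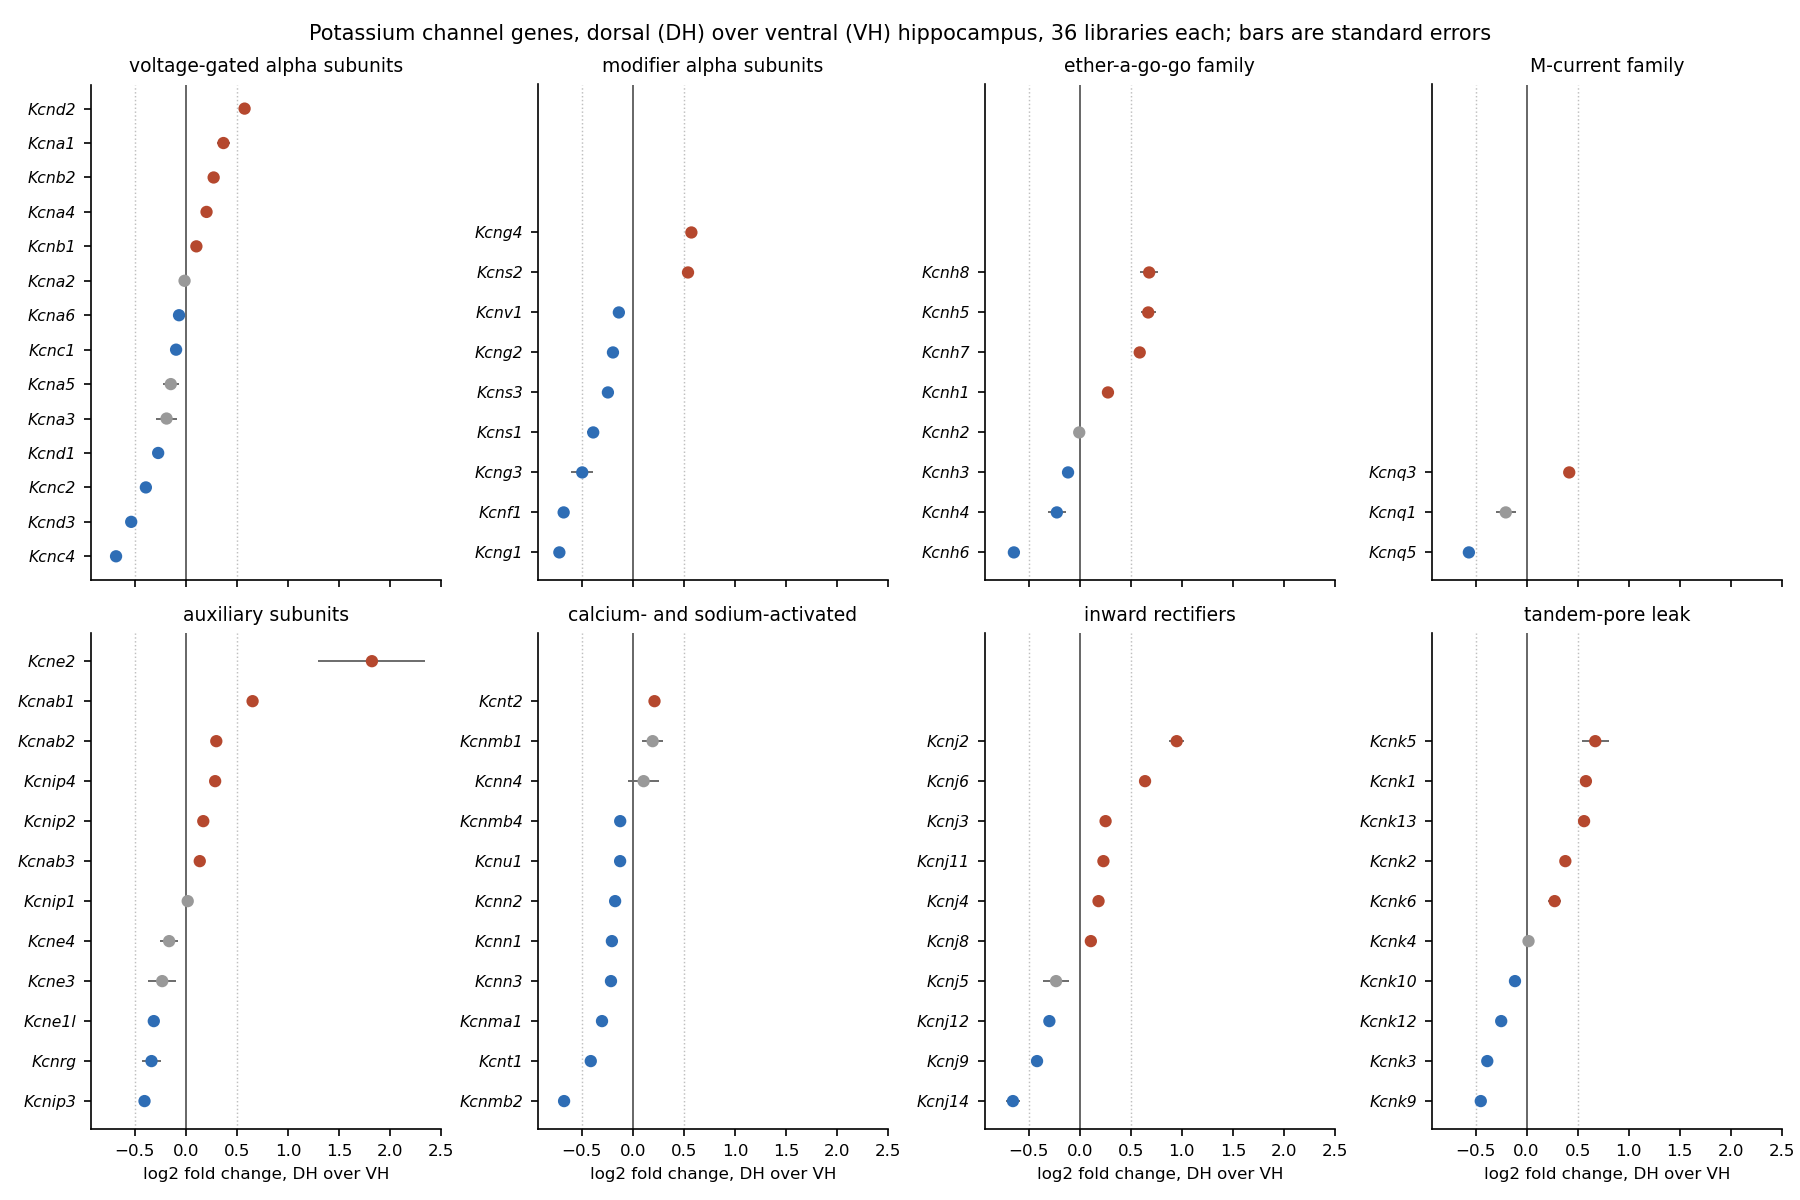
Log2 fold change of tested members, DH over VH, by role group, with standard errors as bars (36 libraries a region); red points passed the test as higher in DH, blue as lower, grey did not pass, and dotted lines mark a size of 0.5. Every role group holds members on both sides of 0, and Kcne2, with the widest bar, lies farthest right at 1.82.

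Among the voltage-gated alpha subunits, which form the delayed rectifier and A-type pores, 15 of 17 were tested, 6 were higher in DH and 6 lower. The counts of this and each later role group stand beside 32.7% of all genes higher in DH and 30.9% lower. Kcnd2, the main A-type channel of pyramidal cell dendrites (chr6:21215503-21729805), had 124, 147 and 175 CPM in DH (lowest, median, highest) and 85.8, 97.9 and 118 CPM in VH. It was the only member whose DH and VH libraries did not overlap, a pattern found in 0.464% of all genes tested, and in 0.143% with DH above. Its log2 fold change was 0.57 ± 0.025 (standard error, adjusted p = 5.06e-31). Its relative Kcnd3 (chr3:105452330-105674002) ran the other way, with 67.7, 75.8 and 105 CPM in DH and 88.9, 113 and 131 CPM in VH. All 36 codes had more Kcnd3 in VH, and 35 DH libraries lay below every VH library. That difference was -0.54 ± 0.027 (adjusted p = 7.76e-28), and Kcnd1, at a median of 10.5 CPM in DH and 12.8 CPM in VH, was lower too (-0.27 ± 0.024).

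The Kcnc channels, which allow fast repolarization in rapidly firing cells, included members lower in DH. Kcnc4 had 36.8, 45.0 and 69.8 CPM in DH and 56.4, 73.4 and 103 CPM in VH, so 33 DH libraries lay below all of VH (-0.68 ± 0.046, adjusted p = 1.00e-20). Kcnc2, a subunit of fast-spiking interneurons, was lower in DH by -0.39 ± 0.021 on the log2 scale, with 34 DH libraries below all of VH. Kcna1, an axonal low-threshold channel, was higher in DH (0.37 ± 0.060) but with wide overlap, 36.6 to 72.6 CPM against 22.9 to 59.1 CPM. Its axonal partner Kcna2 did not pass the test, at medians of 195 and 197 CPM and an interval of the log2 difference from -0.052 to 0.026.

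**Figure D2:**
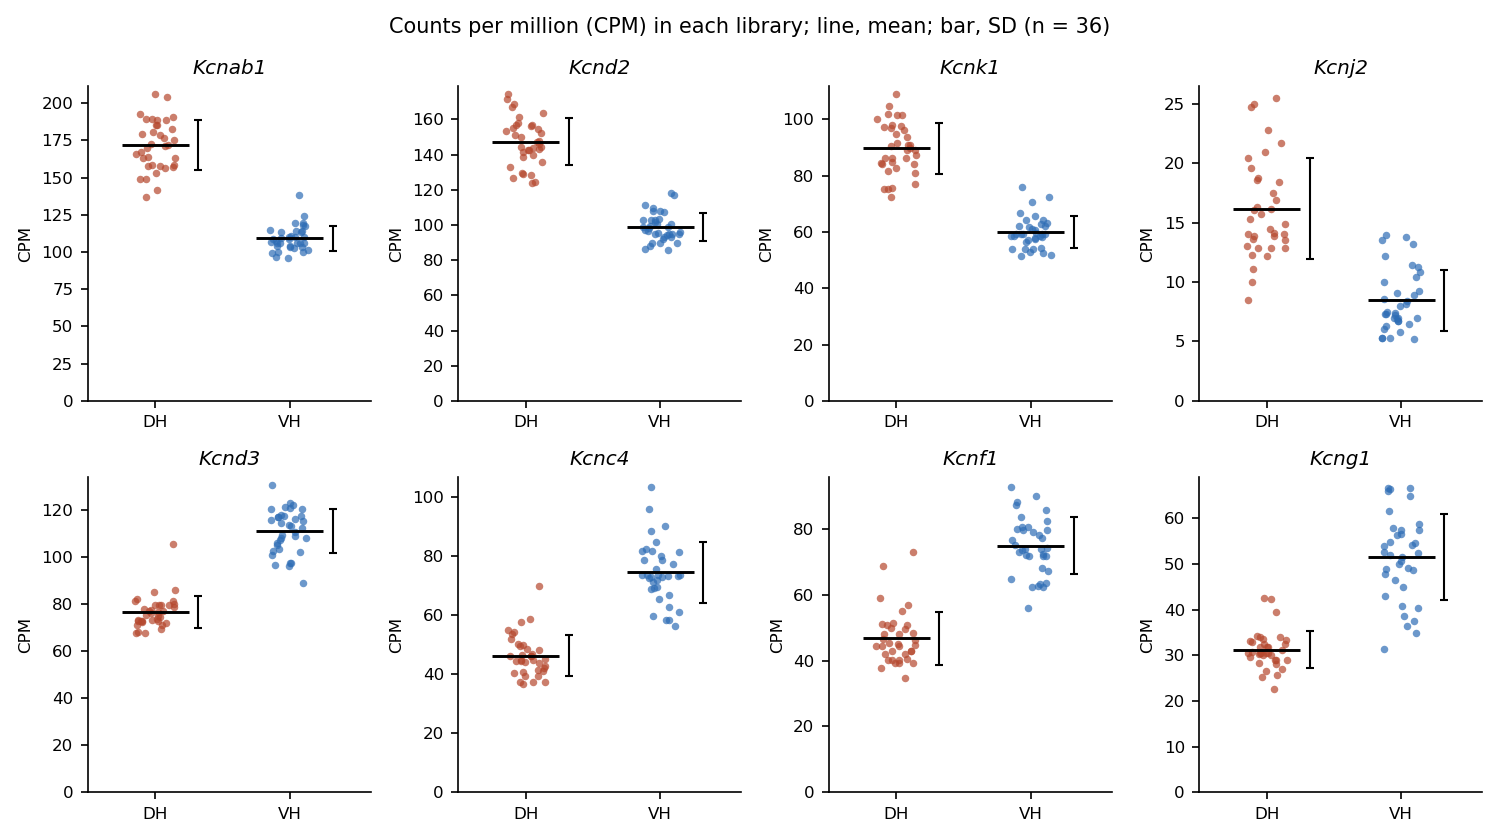
CPM of 8 members in each of the 36 DH and 36 VH libraries, with the mean as a line and the standard deviation as a bar; the vertical axes start at 0. The upper row holds members higher in DH and the lower row members lower in DH, and of the 36 DH libraries 35 (Kcnd3), 33 (Kcnc4), 32 (Kcnf1) and 21 (Kcng1) lie below every VH library.

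Modifier alpha subunits, which do not form channels alone and alter Kcnb channels when they join them, all passed: of 9 tested among 10, 2 were higher in DH and 7 lower. Of all genes tested, 63.6% passed. Kcng1 had 22.7, 30.6 and 42.5 CPM in DH and 31.5, 52.3 and 66.8 CPM in VH (-0.72 ± 0.055, adjusted p = 3.70e-18). Kcnf1, the most abundant of the group per length at 12.7 FPKM (CPM divided by transcript length), had 34.8, 44.8 and 72.8 CPM in DH and 55.9, 74.0 and 92.6 CPM in VH (-0.68 ± 0.048, adjusted p = 7.71e-20). Both genes were lower in DH in 35 of 36 codes. The pair on the other side was Kcns2, at medians of 38.4 and 26.6 CPM (0.54 ± 0.033), and Kcng4, at 9.0 and 6.32 CPM (0.57 ± 0.056). Kcns1 went lower with medians of 8.10 and 10.2 CPM (-0.39 ± 0.058). Kcng3, at 1.16 and 1.69 CPM, lay just outside the size of 0.5 (-0.495) and Kcnd3 just inside it (-0.535).

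Of the 8 genes of the ether-a-go-go family, slow channels that shape firing adaptation, 4 were higher in DH and 3 lower. Kcnh7 had 57.0, 72.3 and 110 CPM in DH and 39.3, 48.2 and 63.3 CPM in VH, with all 36 codes higher in DH (0.59 ± 0.041, adjusted p = 5.73e-20). Kcnh5 (3.21 and 1.89 CPM at the median, 0.67 ± 0.074) and Kcnh8 (0.810 and 0.537 CPM, 0.68 ± 0.087) differed by a like amount at far lower levels. Kcnh6 was lower in DH, at 1.19 and 1.89 CPM (-0.64 ± 0.062). The most abundant of them per length, Kcnh3 at 16.1 FPKM, differed by -0.11 ± 0.026. Kcnh2 did not pass, with an interval of the log2 difference from -0.066 to 0.057.

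Of the 5 genes of the M-current family, whose slow current is shut off by muscarinic receptors, 1 was higher in DH and 3 lower. Kcnq3 had 217, 259 and 306 CPM in DH and 166, 196 and 251 CPM in VH (0.42 ± 0.025, adjusted p = 1.04e-23), higher in DH in 35 of 36 codes. Kcnq5 had 50.4, 67.2 and 93.2 CPM in DH and 85.6, 103 and 129 CPM in VH, lower in DH in all 36 codes (-0.57 ± 0.037, adjusted p = 1.93e-21). Kcnq1, at 0.512 and 0.629 CPM, did not pass (adjusted p = 0.0670).

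Because relatives so often ran in opposite directions, 8 pairs were set against each other within each library on the per-length scale. The pairs were picked after their values were seen, so the ratios are a description and carry no test. Kcnd2 over Kcnd3 had a median of 3.63 in DH and 1.64 in VH, higher in DH in all 36 codes, and 35 DH libraries exceeded every VH library. Kcnq3 over Kcnq5 was 2.0 in DH and 1.0 in VH, also higher in all 36 codes. Kcnk1 over Kcnk9 (5.20 and 2.57) and Kcng4 over Kcng1 (0.331 and 0.140) were higher in DH in 35 of 36 codes each. Kcns2 over Kcns1 was higher in 34 codes (2.43 and 1.24). Kcnip4 over Kcnip3 was higher in all 36 (0.661 and 0.410). Kcnab1 over Kcnab2 (0.133 and 0.106) was higher in all 36, though both of these genes were higher in DH. Kcnj6 over Kcnj9 (0.302 and 0.135) was higher in 35. The DH library 40A had the lowest DH ratio of Kcnd2 over Kcnd3, 1.13 on the log2 scale. On that scale the VH library 40A had the highest VH ratio of Kcnq3 over Kcnq5 (0.47) and of Kcnj6 over Kcnj9 (-1.93). For Kcnj6 over Kcnj9 it exceeded the DH library of the same code (-2.07). No fit left out the VH library 40A alone.

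**Figure D3:**
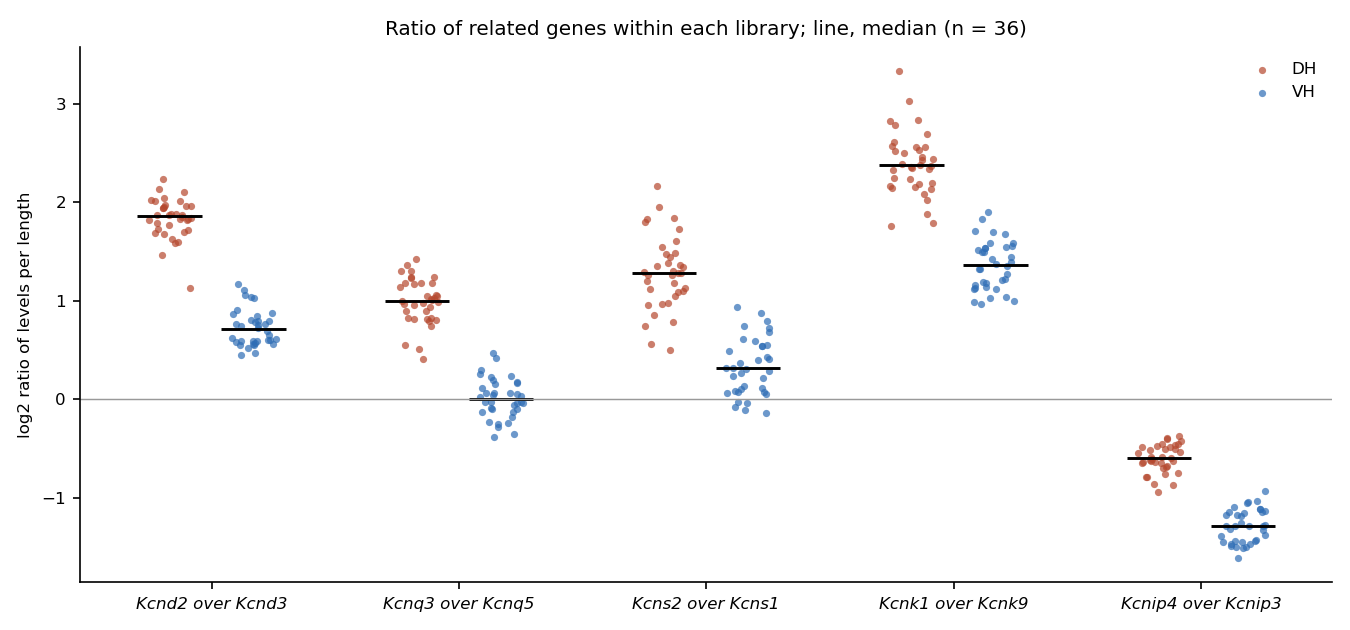
Log2 ratio of per-length levels of 5 pairs of related members within each library, DH in red and VH in blue, with the median of 36 libraries as a line. For Kcnd2 over Kcnd3 the DH points lie between 1.13 and 2.24 and the VH points between 0.46 and 1.17, and the other pairs overlap by few libraries.

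Among auxiliary subunits, 12 of 13 were tested, 6 were higher in DH and 3 lower. Kcnab1, a cytoplasmic beta subunit that speeds inactivation of Kcna channels (chr3:65109384-65378223), had 137, 171 and 206 CPM in DH and 96.2, 108 and 138 CPM in VH. In all, 35 DH libraries lay above every VH library. It had the smallest p of the family (0.65 ± 0.027, adjusted p = 5.63e-32). Kcnab2, per length the most abundant member of all at 103 FPKM, differed less, with medians of 793 and 638 CPM (0.30 ± 0.028). Of the calcium-binding Kcnip proteins that partner Kcnd channels, Kcnip4 (0.29 ± 0.028) and Kcnip2 (0.17 ± 0.030) were higher in DH, and Kcnip3 was lower in all 36 codes (80.1 and 104 CPM at the median, -0.40 ± 0.030). Kcnip1 did not pass, with an interval of -0.047 to 0.083.

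The transcript table, which divides reads among isoforms by estimation, gave 220 tested transcripts of members. Of these 50 were higher and 48 lower in DH, 98 of 220 against 26.9% of all 60332 transcripts tested. Kcnab1 showed an uneven pattern across its starts. Kcnab1-201, which codes for the protein and starts 3′ of the first window above, had 77.5, 121 and 154 CPM in DH and 47.7, 69.0 and 99.0 CPM in VH (0.83 ± 0.049, adjusted p = 1.45e-22). Kcnab1-204, annotated without a coding sequence and starting right after the second window, had medians of 36.0 and 32.5 CPM and did not pass (0.17 ± 0.081, adjusted p = 0.113). Per length, the median ratio of Kcnab1-201 to Kcnab1-204 was 3.08 in DH (1.11 to 5.35) and 1.84 in VH (0.734 to 3.78), higher in DH in 31 of 36 codes. This pair was also picked after its values were seen. Main transcripts of Kcnd2 (Kcnd2-201, 0.57 ± 0.024) and Kcnd3 (Kcnd3-202, -0.54 ± 0.027) followed their genes. Calls in both directions within a gene came among others in Kcna6, Kcnk10, Kcnma1 and Kcnip4, where the transcript going against the gene had a median of at most 1.32 CPM in either region.

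Kcne2, a single-pass subunit abundant in choroid plexus, had the widest spread: 0.0523, 2.65 and 46.1 CPM in DH and 0.0824, 0.237 and 13.8 CPM in VH. Regions overlapped widely, and 15 DH and 6 VH libraries exceeded 5 CPM. The log2 fold change was 1.82 ± 0.52 (adjusted p = 0.00194). Choroid plexus markers moved with it: all 7 of 7 were higher in DH, against 32.7% of all genes. None was at 0 in its lowest library of either region. Their summed level ran from 41.4 to 8894 CPM in DH and from 24.2 to 2353 CPM in VH. Across 36 libraries Kcne2 followed Ttr, the transthyretin gene of choroid plexus, with a Pearson correlation of log2 values of 0.99 in DH and 0.98 in VH. With Ttr as a covariate the Kcne2 difference was -0.068 ± 0.082 (adjusted p = 0.481). No other called member lost its call with that covariate.

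**Figure D4:**
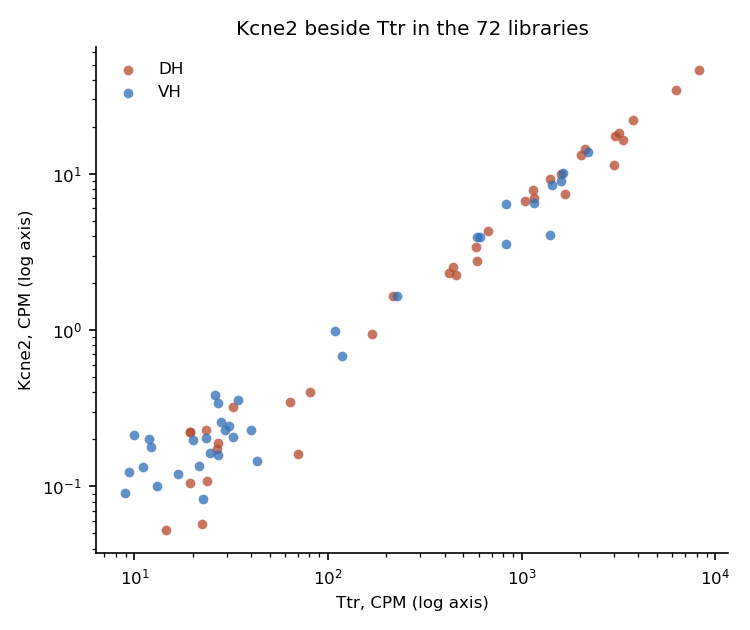
Kcne2 against Ttr in CPM, both on log axes, for each of the 72 libraries, DH in red and VH in blue. Points of both regions fall along one line, with Kcne2 between 0.0523 and 46.1 CPM in DH and between 0.0824 and 13.8 CPM in VH.

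Of the calcium-activated and sodium-activated genes, 11 of 12 were tested, 1 was higher in DH and 8 lower, where 32.7% of all genes were higher and 30.9% lower. Their median log2 fold change was -0.17, against 0.0044 over all genes. Kcnma1, the large-conductance calcium-activated pore and per length the most abundant here at 16.2 FPKM, had 214, 245 and 286 CPM in DH and 273, 306 and 331 CPM in VH (-0.30 ± 0.019, adjusted p = 1.07e-22). Its beta subunit Kcnmb2 had medians of 2.68 and 4.51 CPM (-0.67 ± 0.054). The small-conductance channels of the afterhyperpolarization, Kcnn1, Kcnn2 and Kcnn3, were each lower by -0.17 to -0.21. Kcnt1, a sodium-activated channel, was lower (57.8 and 75.3 CPM at the median, -0.41 ± 0.046), and its relative Kcnt2 was the member higher in DH (0.21 ± 0.039).

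Inward rectifiers hold the resting potential or answer G proteins and ATP, and 6 of 10 tested members (of 12) were higher in DH and 3 lower. Kcnj2, the classical inward rectifier (chr11:111066164-111076821), had 8.50, 15.1 and 25.5 CPM in DH and 5.22, 7.43 and 13.9 CPM in VH. It was higher in DH in 35 of 36 codes (0.95 ± 0.073, adjusted p = 3.17e-18). Of the G protein-gated subunits, Kcnj6 was higher in DH with 30.5, 42.3 and 51.8 CPM against 18.2, 25.7 and 43.1 CPM (0.64 ± 0.054). Kcnj3, the most abundant of the group per length at 28.7 FPKM, was higher by 0.25 ± 0.020, and Kcnj9 was lower (76.8 and 107 CPM at the median, -0.42 ± 0.040). Kcnj14, at 0.892 and 1.41 CPM, was lower in DH in all 36 codes (-0.65 ± 0.066). Kcnj8, a vascular ATP-sensitive subunit, passed only narrowly (0.11 ± 0.045, adjusted p = 0.0312). That call was lost without the DH library 40A, without the 6 codes with high Lcn2 and with no low-count filter.

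Tandem-pore leak channels, which carry background potassium current, had 10 of 14 members tested, 5 higher in DH and 4 lower. Kcnk1, the most abundant per length at 33.5 FPKM, had 72.3, 89.4 and 109 CPM in DH and 51.6, 59.2 and 76.1 CPM in VH, with 32 DH libraries above all of VH (0.58 ± 0.027, adjusted p = 4.97e-29). Kcnk2, a mechanically and lipid-gated channel, followed with 52.8 and 40.0 CPM at the median (0.38 ± 0.025), and Kcnk13 with 7.89 and 5.33 CPM (0.56 ± 0.056). The acid-sensitive channels ran the other way: Kcnk9 had medians of 92.3 and 126 CPM (-0.45 ± 0.040) and Kcnk3 8.68 and 11.5 CPM (-0.39 ± 0.047). Kcnk4 did not pass, with an interval from -0.061 to 0.099.

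The 11 members not tested had a mean of at most 0.0851 CPM, among them Kcnj1, a renal channel, and Kcna10, Kcnk18 and Kcnv2. Partner genes outside the family were read beside it: of 17, 15 were tested, 8 were higher in DH and 5 lower. Of all genes tested, 32.7% were higher and 30.9% lower. The Kcnd partners Dpp6 and Dpp10 differed, at 0.094 ± 0.018 and -0.79 ± 0.068. Lrrc55, a partner of Kcnma1, was higher (0.68 ± 0.068), as was Abcc8, the sulfonylurea receptor of ATP-sensitive channels (0.55 ± 0.033). Of the pacemaker channels, Hcn3 and Hcn4 were lower, at -0.40 and -0.38. The other Hcn genes are not reported here, so no direction is given for that class. The 3 Kcn genes left out had log2 fold changes of 0.16 (Kcnj10), 1.70 (Kcnj13) and -1.10 (Kcnj16).

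Cell type markers also moved between regions, where 32.7% of all genes tested were higher in DH and 30.9% lower. Dentate granule markers were higher in DH in 7 of 7 genes (summed level 312 to 694 CPM in DH and 191 to 450 CPM in VH) and oligodendrocyte markers in 6 of 6 (5851 to 12154 CPM and 3056 to 7742 CPM). CA2 and CA3 markers were higher in 5 of 6 (293 to 458 CPM and 202 to 320 CPM), and microglial markers in 5 of 5 (142 to 289 CPM and 122 to 259 CPM). Ventral CA1 markers were lower in DH in 5 of 6 (109 to 239 CPM and 184 to 400 CPM) and interneuron markers in 5 of 7 (499 to 687 CPM and 541 to 787 CPM). Pan-neuronal markers split, 1 higher and 2 lower of 4. Their part in the channel differences was not tested.

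Between strain labels, differences were smaller. In DH, 17 of 80 members passed (21.2%, against 14.7% of 19647 genes), 13 higher under the label 6NJ (8.06% of all genes) and 4 lower (6.64%). In VH, 14 passed (17.5%, against 9.92% of 19597 genes), 13 higher (4.87% of all genes) and 1 lower (5.06%). Passing in both regions with the same direction were 8 members, while 23 passed in either. The shares of all genes for these counts are not reported here, so neither count is read as a result about the family. None of the members reached 0.5 on the log2 scale, as 0.87% of all genes did in DH and 0.816% in VH. Since Nnt and Gabra2 go against the labels, each direction here is that of the label alone.

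Kcns1, a modifier of Kcnb channels, had 4.62, 6.88 and 9.71 CPM in DH under 6J and 6.32, 8.87 and 14.0 CPM under 6NJ (18 libraries each; 0.38 ± 0.10, adjusted p = 0.00941). In VH it had medians of 9.16 and 11.0 CPM (0.24 ± 0.052, adjusted p = 0.00235). Libraries of the labels overlapped in each region. Its relative Kcns3 was higher under 6NJ in DH (0.15 ± 0.043) and VH (0.18 ± 0.041), and so was Kcnj4, a strong inward rectifier (0.22 ± 0.061 and 0.19 ± 0.045). Kcnq3 had medians of 251 and 279 CPM in DH (0.13 ± 0.034) and 181 and 205 CPM in VH (0.21 ± 0.037, adjusted p = 0.000188). Kcnk1 showed 0.16 ± 0.039 in DH and 0.13 ± 0.037 in VH.

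Lower under 6NJ in both regions was Kcnh6, with 1.02, 1.43 and 1.98 CPM under 6J and 0.567, 1.01 and 1.73 CPM under 6NJ in DH (-0.43 ± 0.10). Its VH medians were 2.14 and 1.6 CPM (-0.39 ± 0.076, adjusted p = 0.000653). Kcnt1 passed in DH, with medians of 64.6 and 50.8 CPM (-0.35 ± 0.073, adjusted p = 0.00110), as did Kcnk9 (-0.23 ± 0.059) and Kcnh8 (-0.35 ± 0.11; lost with no low-count filter). In VH, Kcnt1 missed the threshold (-0.16, adjusted p = 0.0527), and Kcnj2 (0.37 ± 0.099) and Kcnh5 (0.35 ± 0.10) were higher. The difference of DH and VH by label was called for no member (5 at an unadjusted p under 0.05; 0 with DESeq2), against 0.00494% of all genes.

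The 6 codes with Lcn2 above 2 CPM are all labelled 6J. Leaving those codes out left 6 called members for DH, 3 of them higher, and 8 for VH, 6 of them higher. Of the members called with them, 6 of 17 and 5 of 14 were still called, and all kept their sign. Fewer libraries entered these fits, and their shares of all genes called are not reported here. Those still called were Kcnt1, Kcng2, Kcnh6, Kcnk1, Kcnk9 and Kcnq3 in DH and Kcnq3, Kcnh6, Kcns3, Kcnk1 and Kcnc1 in VH. Oligodendrocyte markers were higher under 6NJ in 6 of 6 genes in DH and 1 of 6 in VH, and dentate granule markers in 4 of 7 and 3 of 7. Of all genes, 8.06% were higher in DH and 4.87% in VH. The part of these markers in the label results was not tested. In the home cage alone, the labels differed in no member in DH (13 at an unadjusted p under 0.05; 0 with DESeq2; 0.931% of all genes) and in 1 in VH, against 1.35% of all genes. That member was Kcnq3, with 166, 174 and 210.3 CPM under 6J and 188, 204 and 235 CPM under 6NJ (6 libraries each; 0.24 ± 0.063, adjusted p = 0.0488). The call was lost with RLE scaling, no low-count filter, the Ttr covariate or only the groups compared.

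Condition was compared within each region over both labels, 12 libraries a condition. The cue and the shock and cue comparisons share the home cage libraries, so their values are set side by side and not read as 2 findings. After the cue alone, 3 members were lower in DH and none higher (3.75% of members, against 5.57% of all genes lower and 13% in either direction). In VH 25 passed (31.2%, against 31.5% of all genes), 9 higher (16.1% of all genes) and 16 lower (15.4%). After shock with cue, 5 were lower in DH and none higher (6.25%, against 4.49% of all genes lower and 10% in either direction), and in VH 1 was higher (9.84% of all genes) and 14 lower (18.8% together, against 20.7% of all genes). In either direction each share lies near or below that of all genes. For lower calls alone it lay above in VH after the cue (20% of members and 15.4% of all genes) and after shock with cue (17.5% of members and 10.8% of all genes). In DH after shock with cue it was 6.25% of members and 4.49% of all genes, and rested on only 5 members.

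Kcnj2 was lower than in the home cage in all 4 comparisons. Home cage libraries of DH had 8.50, 19.6 and 25.5 CPM, against 11.1, 13.8 and 21.7 CPM after the cue and 9.98, 14.0 and 19.6 CPM after shock with cue. The log2 differences from the home cage were -0.38 ± 0.12 (adjusted p = 0.0401) and -0.42 ± 0.12 (adjusted p = 0.0290). In VH it had 5.22, 11.1 and 13.8 CPM, then 5.29, 6.97 and 13.9 CPM, then 5.27, 7.15 and 9.23 CPM, with differences of -0.47 ± 0.12 (adjusted p = 0.00377) and -0.56 ± 0.12 (adjusted p = 0.00165). Ranges overlapped throughout, and the lowest home cage library of each region lay below all libraries of the same region after training. By label, home cage medians were 18.5 CPM (6J) and 19.6 CPM (6NJ) in DH, and after shock with cue 13.8 and 15.5 CPM. VH medians went from 10.4 (6J) and 12.2 (6NJ) CPM to 6.58 and 7.77 CPM. In DH the cue call was lost without library 40A (-0.35, adjusted p = 0.0676), with no low-count filter, and with only the groups compared in the fit, and the shock and cue call with no low-count filter (adjusted p = 0.0688).

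Kcng2, a modifier subunit, had home cage, cue and shock with cue medians of 22.4, 19.3 and 17.8 CPM in DH. Its differences from the home cage were -0.18 ± 0.051 (adjusted p = 0.0154) and -0.31 ± 0.051 (adjusted p = 8.89e-05), and in VH it passed after shock with cue at -0.23 ± 0.076, a call lost with no low-count filter and without the codes with high Lcn2. Also lower in DH after shock with cue were Kcnd2 (155 and 138 CPM at the median, -0.18 ± 0.042), Kcnj3 (171 and 152 CPM, -0.14 ± 0.036) and Kcns2 (42.9 and 37.7 CPM, -0.17 ± 0.051). The Kcns2 call was lost with the Ttr covariate and without the codes with high Lcn2. Kcnu1 passed in DH after the cue alone (-0.20 ± 0.069, adjusted p = 0.0497), a call lost with RLE scaling, with the Ttr covariate, with no low-count filter and without the codes with high Lcn2.

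Home cage libraries of VH had 90.4, 105 and 122 CPM of Kcnh3, against 86.7, 91.5 and 98.7 CPM after the cue and 77.3, 90.9 and 107 CPM after shock with cue (-0.20 ± 0.041 and -0.22 ± 0.041). Kcnj4 had medians of 58.1, 49.6 and 47.7 CPM (-0.24 ± 0.054 and -0.31 ± 0.055), and Kcns1 11.9, 9.28 and 9.81 CPM (-0.30 ± 0.064 and -0.24 ± 0.063). Kcnt1 stood at 84.9, 67.6 and 71.5 CPM (-0.29 ± 0.065 and -0.22 ± 0.065), and Kcnk3 at 12.8, 10.8 and 11.1 CPM (-0.26 ± 0.058 and -0.23 ± 0.058). All of these genes had their highest median in the home cage, with overlap between conditions in each. They were named for being called lower than the home cage, so the place of the highest median is no further finding. Kcnk2 and Kcnmb4 passed in both comparisons at -0.15 to -0.19, as did Kcnh4 (-0.47 ± 0.13 after the cue, -0.55 ± 0.13 after shock with cue) and Kcnj11 (-0.15 ± 0.050 and -0.20 ± 0.051). Without the codes with high Lcn2, Kcnj4, Kcnt1, Kcnk2, Kcnmb4, Kcnh4 and Kcnj11 all lost their call after the cue. Kcnn2, of the afterhyperpolarization, was lower after shock with cue (-0.16 ± 0.034).

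Members higher in VH after the cue included Kcng3 (0.54 ± 0.17), Kcna3 (0.56 ± 0.19), Kcnk6 (0.40 ± 0.11), Kcna1 (0.34 ± 0.11), Kcne4 (0.34 ± 0.12), Kcnj6 (0.29 ± 0.10), Kcnt2 (0.21 ± 0.071) and Kcnc2 (0.11 ± 0.030), all called. Each of these 8 calls was lost without the codes with high Lcn2, those of Kcna1, Kcna3, Kcne4, Kcnj6 and Kcnt2 also with no low-count filter, and that of Kcnj6 also with only the groups compared. Kcng3 was the member also called higher after shock with cue (0.52 ± 0.17, adjusted p = 0.0285; lost with no low-count filter and with only the groups compared), from a home cage median of 1.23 CPM to 1.78 CPM. Without the 6 codes with high Lcn2, of which 4 are cue libraries, 8 members passed in VH after the cue (1 higher, 7 lower). All 25 kept their sign, and 7 of the 25 were still called, among them Kcns1, Kcnh3, Kcnk3, Kcnj2 and Kcnj9. After shock with cue 14 passed, 13 of the 15 were still called and all 15 kept their sign. These fits held fewer libraries, and their shares of all genes called are not reported here. Microglial markers were higher in VH after the cue in 3 of 5 genes (16.1% of all genes) and after shock with cue in 0 of 5 (9.84%). The part of these markers in the condition results was not tested.

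**Figure D5:**
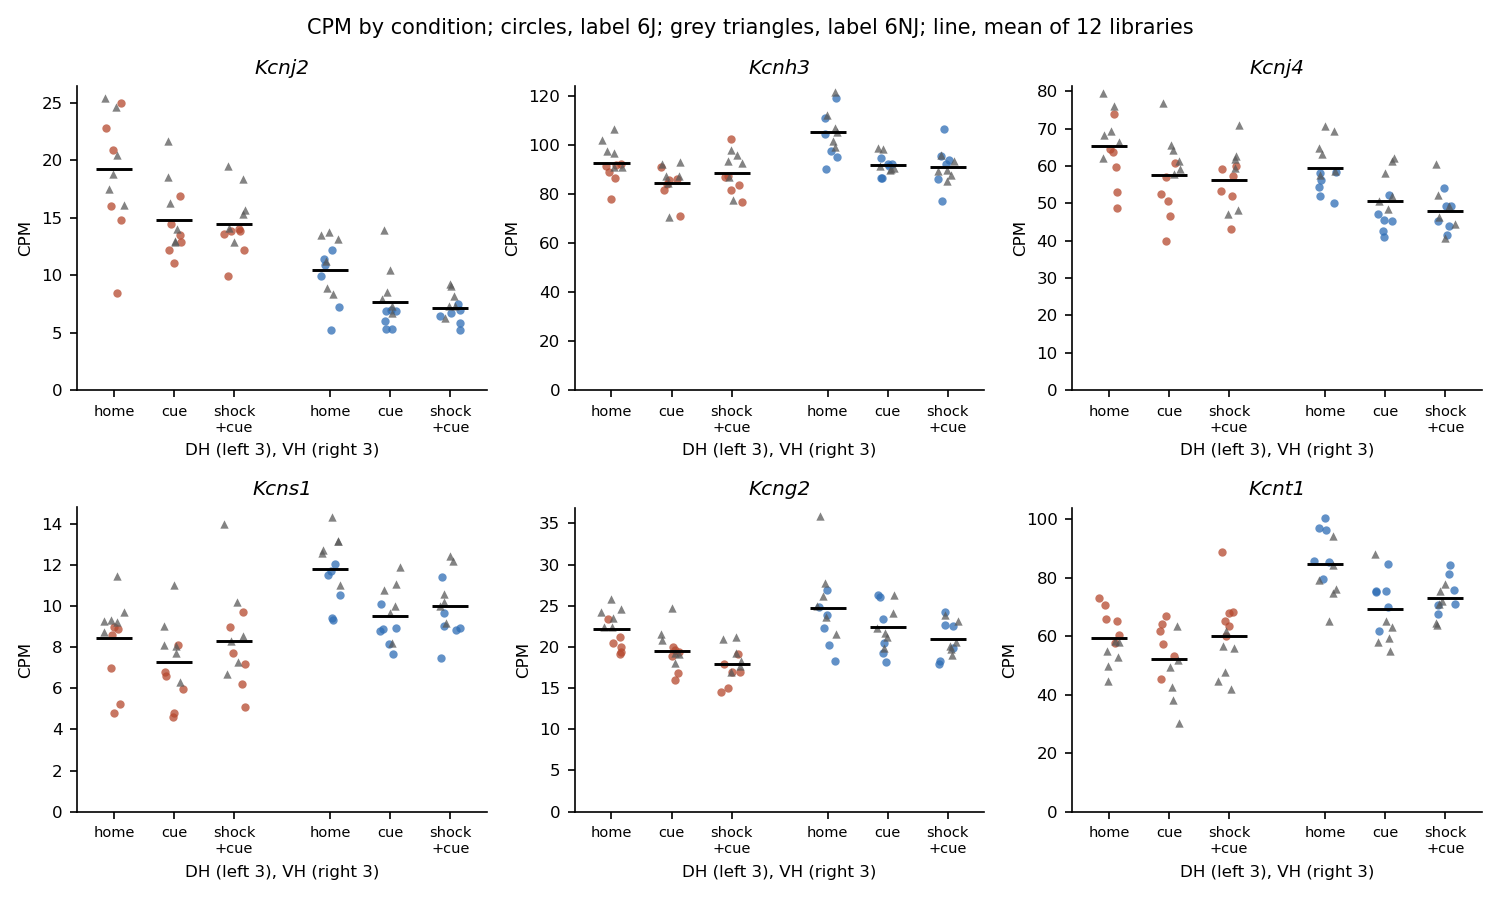
CPM of 6 members by condition, DH on the left and VH on the right of each panel; circles are libraries labelled 6J, grey triangles libraries labelled 6NJ, and lines the mean of 12 libraries, with axes from 0. Kcnj2 is lower after both treatments in each region, and the conditions overlap in every panel.

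Shock with cue against cue alone gave no called member in DH (7 at an unadjusted p under 0.05) or VH (13), 0 with DESeq2, and 0% of all genes passed in either region. The smallest p-values belonged to Kcnd2 in DH (-0.14 ± 0.042, adjusted p = 0.426) and Kcnn2 in VH (-0.11 ± 0.034, adjusted p = 0.669). The response to shock with cue did not differ between regions for any member by the test (8 at an unadjusted p under 0.05; 0 with DESeq2; 0% of all genes). Nor was a difference between labels called in DH (3 at an unadjusted p under 0.05) or VH (1), with 0 by DESeq2 and 0% of all genes in both. For Kcnj2 the difference between regions in that response was 0.13 with an interval of -0.22 to 0.48, so a difference of some size could not be told at this spread.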

How the data were processed

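RNA was sequenced as 75 bp single-end reads from a stranded mRNA kit, per the labels' protocols. The submitters' processing notes name FastQC, HISAT2, featureCounts, kallisto and DESeq2 and the build GRCm38; for versions and the counting strand, not given in the sources used here. The authors deposited raw gene counts, used as they stand, and estimated counts per transcript, rounded here to whole numbers. Estimated counts summed to 32208200 to 59879100 per library. The family and the gene lists were chosen with earlier results of these data known.

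Genes passing edgeR's low-count filter by group were tested in R 4.3.3 with edgeR 4.0.16 (TMM scaling, robust quasi-likelihood fit on group means, Benjamini-Hochberg adjusted p under 0.05). All 72 libraries entered the region comparison, and the 36 of each region those of label and condition. CPM are TMM-scaled, FPKM divide them by exonic length, and intervals are 95%. Alternatives were DESeq2 1.42.0, RLE scaling, other filters, limma 3.58.1 with the code number as random effect, a replicate block and only the groups compared. Further alternatives were a Ttr covariate and leaving out the DH library 40A or the Lcn2 codes. Genes named for region were the 15 largest differences in each direction with a mean of at least 1 CPM and the most abundant per length of each role; for label and condition, 8 per direction by p. Others were named after their values were seen. The test was tried on simulated data with 200 changed genes. Replicate libraries were checked for duplicates: in 180 pairs chi-square per degree of freedom was 4.51 or more. A gene on the other strand overlaps 38 members, whose reads could be shared if strand was not used. Some members and partner genes are not reported here.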

Additional observations from a re-analysis of the deposited data

Results flagged for a closer look

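Kcnq3 in the VH home cage libraries labelled 6J had 1 library at 210.3 CPM, apart from the others of its group of 6, whose median was 174 CPM. It was found among 14 groups checked for a library far from the rest, and chance alone flags about 1 group in 20.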

How the results depend on the processing

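Of the region calls, all 68 were kept with DESeq2 and RLE scaling; Kcnj8 was lost with no low-count filter and without library 40A, and Kcna6 and Kcnj8 without the Lcn2 codes. With a Ttr covariate Kcne2 turned to -0.068 (adjusted p = 0.481). Without the Lcn2 codes, and so with fewer libraries, members called between labels numbered 6 in DH and 8 in VH, and after the cue 8 in VH. The shares of all genes called in those fits are not reported here. After the cue in DH, 1 member was called with no low-count filter. The single VH home cage call between labels became 0 with RLE scaling, with no low-count filter, with the Ttr covariate and with only the groups compared, and 3 without the Lcn2 codes. The cause of these shifts was not tested. Among named genes, 674 values kept direction and call, 43 kept direction and lost the call, and 1 reversed.

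Libraries with the same code were alike across regions only weakly over the tested genes. Their deviations from the group means correlated at -0.19 to 0.34 (median 0.095), with 16 of 36 above 0.1. Of the 36 codes, 7 correlated best with their own code. The 6 codes with high Lcn2 were picked because both their DH and VH libraries were above 2 CPM, so that agreement was set by the choice. In the libraries of all other codes Lcn2 was at most 0.697 CPM. With a replicate block 68 members were called, the same genes, and 96 transcripts in place of 98.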
